A study of Mus musculus with 8 samples.

Results

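Gfi1b and Gfi1 encode a pair of closely related transcriptional repressors, and the open chromatin around both genes was examined in blood progenitors of the mouse. Their loci were taken as all accessible regions (peaks) that overlap 1 of 2 windows of the mm9 genome, chr2:28440000-28485000 for Gfi1b and chr5:108140000-108195000 for Gfi1. These windows hold the genes, which both lie on the minus strand, and blood enhancers known for them in the mouse. The rule held 20 of the 134473 peaks of the study, 14 at Gfi1b and 6 at Gfi1. It used positions only and no measured signal.

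The samples were sorted MPP2 cells, multipotent progenitors with a bias toward platelet and red cell fates, from bone marrow of C57BL/6 mice aged 8 to 12 weeks. All cells were LSK (lineage-negative, Sca1-positive, Kit-positive), Flt3-negative, CD150-positive and CD48-positive, and all were sorted as Gata1-positive. The groups differed in Vwf, which encodes von Willebrand factor: 4 libraries came from Vwf+Gata1+ cells and 4 from Vwf-Gata1+ cells, with 500 cells in each. The assay was ATAC-seq on bulk cells by the Omni-ATAC protocol, where the transposase Tn5 cuts accessible DNA and adds adapters to it. How Vwf and Gata1 were detected is not stated, nor whether each library is from its own animal, and so p-values reflect library spread that may in part be technical. The sort was not checked at marker genes here, because peaks other than these were not assigned to genes.

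Both proteins carry an amino-terminal SNAG domain, which recruits the histone demethylase LSD1 and its CoREST partners, and carboxy-terminal zinc fingers that bind DNA with an AATC core. Gfi1b is required for red cells and megakaryocytes, and Gfi1 for neutrophils and for the restraint of stem cell division. Each is known to repress its own gene and that of the other, and in human erythroleukaemia cells GFI1B is known to bind its own promoter together with GATA1. Enhancers downstream of mouse Gfi1b and far upstream of mouse Gfi1 are known to be bound by blood factors such as TAL1 and GATA2.

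The promoters are shown because the GFI, GATA and E-box letters discussed with the promoter peaks can be read in them. Each line gives the 250 bases upstream of a RefSeq transcript start (GRCm38.p6, minus strand, 5′ to 3′), and RefSeq lists 1 start for Gfi1b on chromosome 2 and 2 for Gfi1 on chromosome 5, the second lying 1462 bases downstream of the first. Capitals mark AATC or GATAA on either strand (GATT and TTATC on the other).
Gfi1b promoter: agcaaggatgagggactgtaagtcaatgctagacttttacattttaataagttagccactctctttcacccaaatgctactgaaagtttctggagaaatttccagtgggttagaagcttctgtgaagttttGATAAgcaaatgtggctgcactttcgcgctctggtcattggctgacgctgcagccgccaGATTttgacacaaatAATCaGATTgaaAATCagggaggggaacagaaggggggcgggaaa
Gfi1 promoter at the first start: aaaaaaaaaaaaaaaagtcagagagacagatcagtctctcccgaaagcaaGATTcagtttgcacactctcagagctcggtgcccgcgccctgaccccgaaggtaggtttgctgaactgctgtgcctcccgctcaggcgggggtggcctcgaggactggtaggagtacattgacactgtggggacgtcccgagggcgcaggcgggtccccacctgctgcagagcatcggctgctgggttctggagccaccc
Gfi1 promoter at the second start: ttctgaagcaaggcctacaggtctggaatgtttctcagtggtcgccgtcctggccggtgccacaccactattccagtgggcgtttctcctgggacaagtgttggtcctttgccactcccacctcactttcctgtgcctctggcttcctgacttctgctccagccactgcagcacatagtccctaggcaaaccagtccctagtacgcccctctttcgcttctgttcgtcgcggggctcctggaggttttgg

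The Gfi1b promoter holds 4 AATC cores, all between 60 and 33 bases upstream of the start, where the median over 32851 RefSeq promoters is 1. The share of those promoters with at least 1 AATC in the same 250 bases was 69.0%. The share with 4 or more was not computed, so no excess is read from the count. One of the 4 cores at Gfi1b belongs to the longer form AAATCA, which 12.4% of promoters hold. A single GATAA lies 119 bases upstream, a motif found in 22.6% of promoters, and CANNTG, the letters of an E-box, occurs at 180 and at 113 bases, with at least 1 in 66.2% of promoters. At the first Gfi1 start there was 1 AATC core, 200 bases upstream, with 1 E-box and no GATAA. At the second there was no AATC and no GATAA in this window, but 1 E-box and 4 copies of the ETS core GGAA, which 93.4% of promoters hold with a median of 3. The Gfi1b promoter held 3 copies of GGAA and the first Gfi1 promoter none. TGTGGT, the RUNX motif searched, matched none of the 3 windows and 14.0% of all promoters. Base composition differed too, with 44.4% G or C in the Gfi1b promoter, against 59.2% and 57.6% in those of Gfi1 and a median of 52.4% over all promoters. These are matches of letters on both strands, and motifs were not tested for binding.

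Signal is given as CPM, counts scaled to the library total over tested peaks with TMM factors (1000000 counts in each library), and levels of different peaks are compared per kb of peak. Positions are distances of a peak's centre from the approximate start of its gene, mm9 28477500 for Gfi1b and 108155000 for Gfi1. Total counts in all peaks ran from 4628997 to 7753538 per library, and 0.0285% to 0.0305% of them fell in the 20 peaks. Of these, 19 had enough counts to be tested and 1, at the far downstream end of the Gfi1 window, did not. Both replicate 1 libraries resembled each other in the study as a whole (their deviations from the group means correlated at 0.301 across peaks), and values without them are given below.

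The Gfi1b window was densely open. It held 3.11 peaks per 10 kb, against 0.586 on chromosome 2 as a whole, while the Gfi1 window held 1.09 per 10 kb, against 0.566 on chromosome 5. Both windows were placed on blood genes and known enhancers, so a density above that of the chromosome was likely by choice. The size of the contrast between the genes depends on the edges. Windows 10 kb wider on each side held 17 Gfi1b and 12 Gfi1 peaks, still more at Gfi1b, whose window is the shorter. Summed over its peaks, the Gfi1b window had 219.7 ± 10.6 CPM across Vwf+Gata1+ libraries and 216.9 ± 11.2 CPM across Vwf-Gata1+ libraries (SD, n = 4 each). The Gfi1 window had 84.4 ± 4.61 CPM across Vwf+Gata1+ libraries and 88.4 ± 2.63 CPM across Vwf-Gata1+ libraries (SD, n = 4 each). Per kb, the strongest open regions of both windows lay away from the promoters, at 19.6 and 23.2 kb downstream of the Gfi1b start and 33.5 kb upstream of the Gfi1 start.

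**Figure D1:**
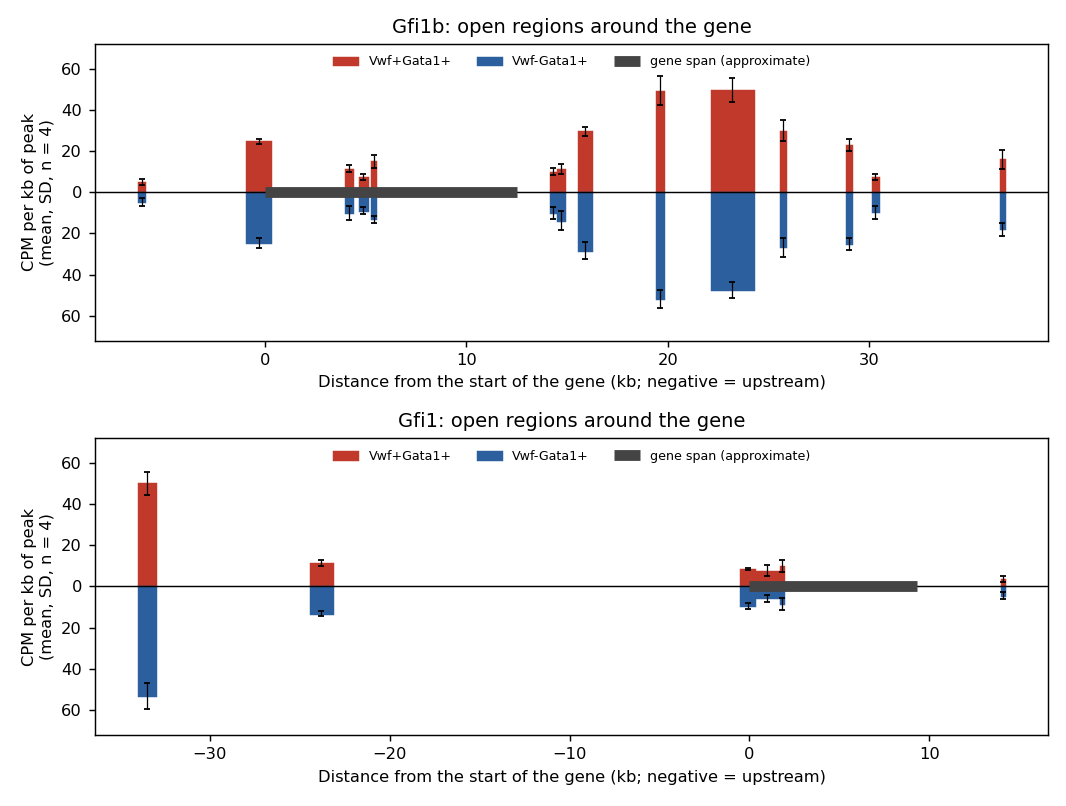
Mean signal per kb of each peak (y axis, CPM per kb; bars are means and lines SD over 4 libraries) against distance from the start of the gene in kb, with Vwf+Gata1+ cells drawn upward and Vwf-Gata1+ cells downward; bar width is peak width and the dark line the approximate gene span. The bars mirror each other, and the tallest are the Gfi1b peaks 19.6 and 23.2 kb downstream and the Gfi1 peak 33.5 kb upstream.

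No difference between the subpopulations was called at either gene. Of the 19 tested peaks, edgeR's quasi-likelihood test called 0 at an adjusted p of 0.05 (lowest adjusted p 0.776), where 14 of 97040 peaks (0.0144%) were called in the whole table, 0.0134% higher and 0.00103% lower in Vwf+Gata1+ cells. At an unadjusted p under 0.05 there were also 0 of the 19, by edgeR, by DESeq2 and by limma-voom with quality weights, against 6.72%, 3.47% and 7.49% of all tested peaks. Blocking by replicate number put 1 of the 19 there, against 10.3% of all tested peaks. Of the 19 log2 fold changes, all Vwf+Gata1+ over Vwf-Gata1+, 9 were above 0 and 10 below, with a median of -0.03 beside 0.00 over all tested peaks. Their median size was 0.16 beside 0.15. The groups overlapped at each of the 19, and were apart at 3.88% of all tested peaks.

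A miss of the threshold does not show that the groups are alike, and the intervals say what sizes of change these data allow. At 19 of 19 tested peaks the 95% interval excluded changes of 2-fold or more in both directions, which holds for 85.6% of all tested peaks, and at 10 of 19 it also excluded 1.5-fold, which holds for 41.5%. Standard errors ran from 0.09 on the log2 scale at the strongest peak to 0.35 at the weakest, and were 0.10 to 0.12 at the Gfi1b promoter and the strongest peaks of the Gfi1 and Gfi1b enhancer zones. At the rest of the 19, a difference of 1.5-fold lay within the interval, and these data can neither show nor exclude it.

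**Figure D2:**
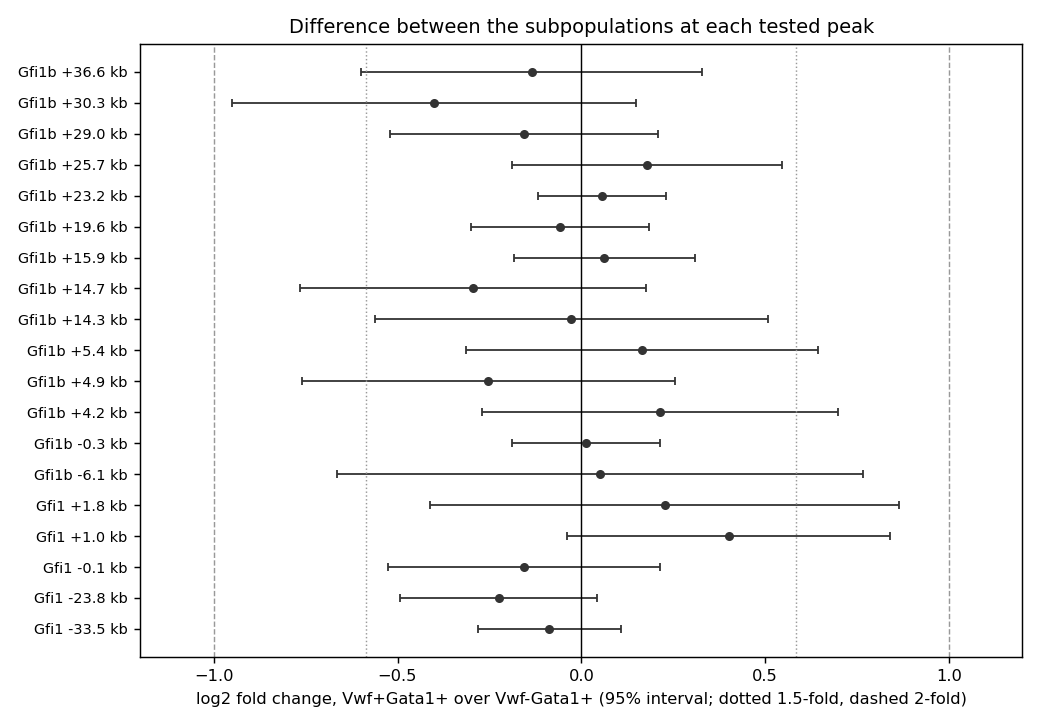
Log2 fold change of Vwf+Gata1+ over Vwf-Gata1+ (x axis) with its 95% interval for each of the 19 tested peaks, named by distance from the start of the gene; dotted lines mark 1.5-fold and dashed lines 2-fold. All intervals hold 0 and stay inside the 2-fold lines, and the narrowest belong to the Gfi1b peak 23.2 kb downstream, the Gfi1 peak 33.5 kb upstream and the Gfi1b promoter.

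At the Gfi1b promoter a peak of 1245 bp covered the start of the gene (chr2:28477167-28478411). Its signal in replicates 1 to 4 was 32.1, 28.5, 31.4 and 31.1 CPM for Vwf+Gata1+, against 31.5, 26.9, 34.1 and 30.1 CPM for Vwf-Gata1+. The ranges overlap almost completely, and the spread is narrower in Vwf+Gata1+ cells. The means were 30.8 ± 1.57 CPM across Vwf+Gata1+ libraries and 30.6 ± 3.01 CPM across Vwf-Gata1+ libraries (SD, n = 4 each), and the log2 fold change was 0.01 ± 0.10 (SE), with an adjusted p of 0.993 by edgeR. The 95% interval of the fold ran from 0.877 to 1.16. Within-group variance at this peak was 1.11 times what counting alone gives, where the median of all tested peaks was 1.37. RefSeq also has a long noncoding RNA gene, Gm52548, that overlaps Gfi1b, and the signal of a shared region cannot be told apart by gene.

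Downstream of the gene, the strongest Gfi1b region was a peak of 2116 bp centred 23.2 kb from the start (chr2:28453272-28455387). It lay beyond the 13 to 17 kb span that the rule names for the known enhancers. Its signal was 94.8, 106, 121 and 96.3 CPM in replicates 1 to 4 of Vwf+Gata1+ cells, against 94.2, 93.2, 109 and 105 CPM in those of Vwf-Gata1+ cells. The highest library was replicate 3 in both groups, and the groups overlap. Means were 105 ± 12.3 CPM across Vwf+Gata1+ libraries and 100.4 ± 7.95 CPM across Vwf-Gata1+ libraries (SD, n = 4 each). The log2 fold change was 0.06 ± 0.09 (SE), with an adjusted p of 0.952 by edgeR and a 95% interval of the fold from 0.922 to 1.17. This peak was wider than or as wide as 99.6% of all peaks and held 47.6% ± 3.57 of the signal of the Gfi1b window across Vwf+Gata1+ libraries and 46.2% ± 2.26 across Vwf-Gata1+ libraries (SD, n = 4 each). Per kb it had 2.01 ± 0.266 times the signal of the Gfi1b promoter peak across Vwf+Gata1+ libraries and 1.93 ± 0.137 times across Vwf-Gata1+ libraries.

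A narrow peak of 405 bp, 19.6 kb from the start (chr2:28457659-28458063), was as open per kb. It had 21.5, 18.0, 17.2 and 23.3 CPM in replicates 1 to 4 of Vwf+Gata1+ cells, against 22.6, 18.8, 20.7 and 22.0 CPM in those of Vwf-Gata1+ cells. Again no library pattern separates the groups. The log2 fold change was -0.06 ± 0.12 (SE), with an adjusted p of 0.968 by edgeR. Over all 8 libraries this peak averaged 50.6 ± 5.58 CPM per kb and the 23.2 kb peak 48.5 ± 4.65 CPM per kb (SD, n = 8), and their ranges overlap.

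In the enhancer zone named by the rule lay 3 peaks. The strongest, centred 15.9 kb downstream of the start (chr2:28461281-28461954), had 17.9, 21.0, 19.9 and 20.7 CPM in replicates 1 to 4 of Vwf+Gata1+ cells, against 17.5, 17.1, 23.0 and 19.0 CPM in those of Vwf-Gata1+ cells. Its log2 fold change was 0.06 ± 0.12 (SE), with an adjusted p of 0.968 by edgeR. The peak 14.7 kb downstream (chr2:28462609-28463001) had 4.48, 3.38, 5.73 and 4.46 CPM in replicates 1 to 4 of Vwf+Gata1+ cells, against 7.32, 6.46, 3.71 and 4.09 CPM in those of Vwf-Gata1+ cells. Replicates 1 and 2 of Vwf-Gata1+ cells stand above the other 6 libraries there. The log2 fold change was -0.30 ± 0.23 (SE), with an adjusted p of 0.871 by edgeR, and -0.10 without both replicate 1 libraries. At the peak 14.3 kb downstream (chr2:28463069-28463388) the means were 3.17 ± 0.539 CPM across Vwf+Gata1+ libraries and 3.20 ± 0.925 CPM across Vwf-Gata1+ libraries (SD, n = 4 each), and the adjusted p of edgeR was 0.994. Together the zone had 27.6 ± 1.59 CPM across Vwf+Gata1+ libraries and 27.7 ± 1.2 CPM across Vwf-Gata1+ libraries (SD, n = 4 each). The 6 peaks farther downstream together had 147 ± 9.31 CPM across Vwf+Gata1+ libraries and 145 ± 8.31 CPM across Vwf-Gata1+ libraries.

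The largest log2 fold change among the Gfi1b peaks was at a weak site 30.3 kb downstream (chr2:28447005-28447374). It had 3.03, 3.19, 2.06 and 2.59 CPM in replicates 1 to 4 of Vwf+Gata1+ cells, against 5.36, 2.92, 3.32 and 2.77 CPM in those of Vwf-Gata1+ cells. One library, replicate 1 of Vwf-Gata1+ cells, lies above the rest. The log2 fold change was -0.40 ± 0.27 (SE), with an adjusted p of 0.838 by edgeR, and -0.11 without that library. Inside the gene, 3 peaks lay between 4.2 and 5.4 kb from the start with a summed signal of 12.3 ± 1.41 CPM across Vwf+Gata1+ libraries and 11.8 ± 1.5 CPM across Vwf-Gata1+ libraries (SD, n = 4 each). Of these, the one 4.9 kb from the start (chr2:28472362-28472804) had 3.3 ± 0.706 CPM across Vwf+Gata1+ libraries and 3.95 ± 0.802 CPM across Vwf-Gata1+ libraries. Its log2 fold change was -0.25 ± 0.25 (SE), with an adjusted p of 0.910 by edgeR.

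Gfi1 was open at its promoter too, at a lower level per kb than Gfi1b. Only the peak at the approximate start is counted as its promoter here, and not the peak near the second RefSeq start. The centre of the peak left out lies 1.0 kb into the gene, at the edge of the 1 kb limit for promoters. Its log2 fold change was 0.40, so the promoter values and ratios for Gfi1 rest on this choice. The promoter peak of 811 bp (chr5:108154699-108155509) had 6.85, 6.57, 6.42 and 7.62 CPM in replicates 1 to 4 of Vwf+Gata1+ cells, against 9.41, 7.69, 7.41 and 6.13 CPM in those of Vwf-Gata1+ cells. Both the highest value (replicate 1) and the lowest (replicate 4) are in Vwf-Gata1+ cells. The means of 6.86 ± 0.535 CPM across Vwf+Gata1+ libraries and 7.66 ± 1.35 CPM across Vwf-Gata1+ libraries (SD, n = 4 each) gave a log2 fold change of -0.16 ± 0.18 (SE), with an adjusted p of 0.929 by edgeR, or -0.02 without both replicate 1 libraries. Per kb, the Gfi1b promoter peak had 2.93 ± 0.237 times the signal of the Gfi1 promoter peak across Vwf+Gata1+ libraries and 2.66 ± 0.509 times across Vwf-Gata1+ libraries (SD, n = 4 each), and it was higher in each of the 8 libraries.

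Next to it, a wider and more variable peak of 1272 bp centred 1.0 kb into the gene (chr5:108153349-108154620) had the lowest p of the 19. The second RefSeq start of Gfi1 lies 1462 bases downstream of the first. It falls inside this peak if the first is at the approximate start used here. The match crosses builds and was not tested. The signal of this peak was 13, 5.07, 9.86 and 10.8 CPM in replicates 1 to 4 of Vwf+Gata1+ cells, against 9.41, 7.23, 4.68 and 8.03 CPM in those of Vwf-Gata1+ cells. Replicates 1, 3 and 4 of Vwf+Gata1+ cells are the highest of the 8 libraries, while replicate 2 of that group is the second lowest. The log2 fold change was 0.40 ± 0.22 (SE; unadjusted p of edgeR 0.0730, adjusted p = 0.776), and its 95% interval, from -0.04 to 0.84, holds both 0 and a fold of 1.5. Without replicate 2 of Vwf+Gata1+ cells the log2 fold change was 0.60 (edgeR unadjusted p 0.00302, adjusted p 0.511). Without replicate 1 of Vwf+Gata1+ cells it was 0.21 (edgeR unadjusted p 0.357, adjusted p 0.872). These were the highest and lowest values with 1 library left out, so the unadjusted p depends on single libraries. Within-group variance here was 4.94 times counting variance, a ratio at or above that of 97.2% of tested peaks. Among the members, only the Gfi1b peak 23.2 kb downstream had a higher ratio, 5.76.

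**Figure D3:**
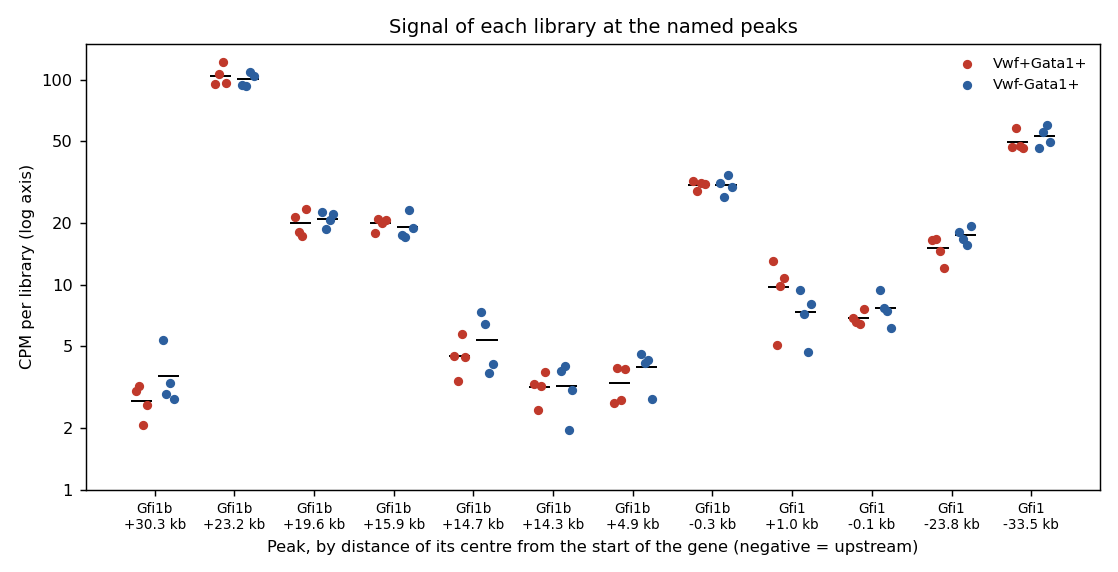
CPM of each library (y axis, log scale) at the 12 named peaks, with Vwf+Gata1+ to the left of Vwf-Gata1+ at each; dots are libraries and short lines group means, n = 4. The groups overlap at each of the 12 peaks, and the Gfi1 peak 1.0 kb into the gene has a wide spread in both.

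Far upstream of Gfi1, a peak of 994 bp centred 33.5 kb from the start (chr5:108187990-108188983) held most of the signal of the window. The rule names an enhancer 35 kb upstream, and this peak was taken for it within a tolerance of 2.5 kb from an approximate start, a match that is assumed and was not tested. It had 46.8, 58.4, 47.4 and 46.3 CPM in replicates 1 to 4 of Vwf+Gata1+ cells, against 46.5, 55.4, 60.3 and 49.5 CPM in those of Vwf-Gata1+ cells. Most libraries lie between 46 and 50 CPM, and the higher ones are split between the groups. The means of 49.7 ± 5.78 CPM across Vwf+Gata1+ libraries and 52.9 ± 6.13 CPM across Vwf-Gata1+ libraries (SD, n = 4 each) gave a log2 fold change of -0.09 ± 0.10 (SE), with an adjusted p of 0.923 by edgeR. The interval of the fold ran from 0.823 to 1.08. This peak held 58.8% ± 4.60 of the signal of the Gfi1 window across Vwf+Gata1+ libraries and 59.8% ± 5.45 across Vwf-Gata1+ libraries. Per kb it had 5.95 ± 0.971 times the signal of the Gfi1 promoter peak across Vwf+Gata1+ libraries and 5.78 ± 1.22 times across Vwf-Gata1+ libraries (SD, n = 4 each).

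A second upstream peak, 23.8 kb from the start (chr5:108178158-108179478), had 16.6, 16.7, 14.7 and 12.1 CPM in replicates 1 to 4 of Vwf+Gata1+ cells, against 18.2, 16.8, 15.6 and 19.3 CPM in those of Vwf-Gata1+ cells. The groups overlap, with the lowest values in replicates 3 and 4 of Vwf+Gata1+ cells. Its log2 fold change of -0.23 ± 0.13 (SE; unadjusted p of edgeR 0.0981, adjusted p = 0.806) was -0.13 without replicate 4 of Vwf+Gata1+ cells. In RefSeq the next genes upstream of Gfi1 are the long noncoding RNA gene Gm42147 and the protein-coding gene Evi5. Their near ends lie 11.8 and 19 kb from Gfi1, nearer to it than both upstream peaks. Whether these peaks lie inside one of them was not determined, since far ends were not compared and the annotation is of another build.

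Placed in order of signal per kb over the 8 libraries, the members began with the Gfi1 peak 33.5 kb upstream (51.6 ± 5.81 CPM per kb) and the Gfi1b peaks 19.6 and 23.2 kb downstream, whose ranges over libraries overlap. They were as high as or higher than 99.1%, 99.0% and 98.8% of all peaks per kb. In CPM per peak, without regard to width, these shares were 97.7%, 90.2% and 99.8%, and that of the Gfi1b promoter was 93.9%, so the place of the narrow 19.6 kb peak above the promoter holds per kb and not per peak. A gap followed, the only pair of neighbours in the order without overlap: the lowest library of the 23.2 kb peak had 44.0 CPM per kb and the highest library of the 15.9 kb peak 34.1 CPM per kb. In the other 18 of 19 neighbouring pairs the ranges over libraries overlap. The Gfi1b peak 25.7 kb downstream (28.3 ± 4.86 CPM per kb) came next after the 15.9 kb peak, and the Gfi1b promoter after it at 24.7 ± 1.79 CPM per kb (at or above 91.2% of peaks), and the Gfi1 promoter had 8.95 ± 1.28 CPM per kb (at or above 63.1%; SD, n = 8 each).

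The remaining 8 members lay 36.6, 29.0, 25.7, 5.4 and 4.2 kb downstream and 6.1 kb upstream of the Gfi1b start and 14.1 and 1.8 kb downstream of the Gfi1 start. They had means of 0.801 to 8.45 CPM in Vwf+Gata1+ cells and 0.984 to 7.76 CPM in Vwf-Gata1+ cells. Among the 7 of them that were tested, log2 fold changes ran from -0.16 to 0.23 and edgeR adjusted p values from 0.913 to 0.992. The untested peak had 3 to 9 counts per library. At the window edges, the last member downstream of Gfi1b had 4.26 ± 1.19 CPM across Vwf+Gata1+ libraries and 4.77 ± 0.841 CPM across Vwf-Gata1+ libraries, while the first peak left out there, 39.0 kb from the start, had 31.7 ± 2.09 CPM across Vwf+Gata1+ libraries and 32.3 ± 3.50 CPM across Vwf-Gata1+ libraries (SD, n = 4 each). In RefSeq the protein-coding gene Gtf3c5 lies 26.2 kb beyond the downstream end of Gfi1b, a gene of 12.5 kb. Its near end is thus close to that left-out peak, which may belong to either gene. A small nuclear RNA gene, Gm22675, lies 14.2 kb beyond Gfi1b, inside the window. Upstream of Gfi1, the last member is the peak at 33.5 kb and the first peak left out, at 41.9 kb, had 0.562 ± 0.400 CPM across Vwf+Gata1+ libraries and 0.530 ± 0.168 CPM across Vwf-Gata1+ libraries.

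The balance of open chromatin between the genes was set side by side because these repressors are known to act on each other's gene. The ratio of summed signal, Gfi1b over Gfi1, was 2.42, 2.40, 2.91 and 2.71 in replicates 1 to 4 of Vwf+Gata1+ cells, against 2.5, 2.25, 2.52 and 2.55 in those of Vwf-Gata1+ cells. The groups overlap, although the highest ratios are in replicates 3 and 4 of Vwf+Gata1+ cells. The log2 difference of the ratio was 0.09, with an SD between replicates of 0.112, and it was -0.12 when sums were limited to the gene span and 1 kb on each side. For the Gfi1 sum the log2 difference was -0.07, with an SD of 0.063, and 0.15 over the gene span and 1 kb on each side. Neither direction held between the choices of region, and no test was made on these sums. Gfi1b had the larger sum in each of the 8 libraries. Its 14 peaks cover 7886 bp, and the 6 of Gfi1 cover 4858 bp.

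**Figure D4:**
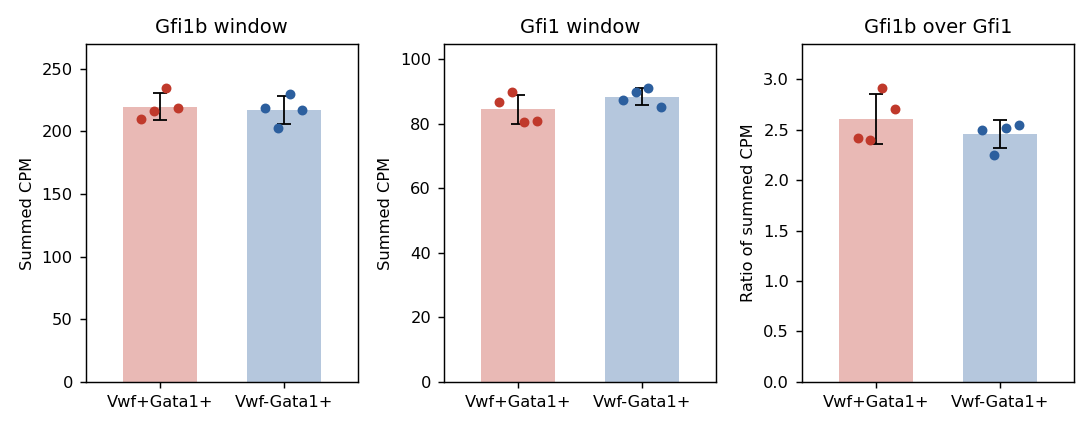
Summed CPM over the peaks of the Gfi1b window and of the Gfi1 window, and their ratio (y axes), for Vwf+Gata1+ and Vwf-Gata1+ cells; bars are means, lines SD and dots libraries, n = 4 each. The groups overlap in all 3 panels, with ratios from 2.25 to 2.91 over the 8 libraries.

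The highest library was in the Vwf+Gata1+ group at 6 of the 20 peaks and in the Vwf-Gata1+ group at 14, a tally that was not tested. Its share over all peaks was not computed, so no direction is read from it. The log2 fold changes of the 19 tested peaks were split, with 9 above 0 and 10 below. Replicate 1 of Vwf-Gata1+ cells was the highest library at 8 of the 20 peaks and the lowest at 1, while the other 7 libraries were highest at 0 to 3. Without both replicate 1 libraries, a fit chosen after seeing the data, 0 members were called. Within-group variance exceeded 2 times the counting variance at 4 of the 20 peaks, against 27.6% of all tested peaks. These were the peaks 23.2 kb and 14.7 kb downstream of the Gfi1b start (ratios of 5.76 and 2.34), and those 33.5 kb upstream of and 1.0 kb into Gfi1 (4.13 and 4.94).

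As a description of likeness, the profiles over the 8 libraries were compared with those of other peaks of similar signal, by the root mean square difference of centred log2 CPM. Nearest to the Gfi1b peak 23.2 kb downstream were peaks at chr19:4112929-4114579 (0.0299) and chr16:17131502-17133135 (0.0383), where the median over 3158 candidates was 0.118. Nearest to the Gfi1 peak 33.5 kb upstream were chr5:93103619-93105447 (0.0427) and chr9:57287376-57288124 (0.0485), where the median over 10147 candidates was 0.164. The nearest of many candidates lie below the median by selection, so these values are no sign of a special likeness. All candidates share the same 8 libraries, and genes at these sites were not looked up.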

How the data were processed

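Raw counts for 134473 peaks in 8 libraries were deposited by the authors as a single table. The build was mm9, and MACS2, Picard, SAMtools, Bowtie2, FastQC and Trim Galore are named, per the submitters' processing notes, with no role, order or version. What was counted (reads or fragments), duplicate handling, a transposase shift and peak merging are not given in the sources used here. Such a shift is small beside peak widths.

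Peaks low in counts were left out with filterByExpr (minimum count 10, minimum total 15), leaving 97040. Libraries were scaled by TMM and tested with edgeR's robust quasi-likelihood test on group alone, with Benjamini-Hochberg adjustment over all tested peaks and a threshold of 0.05. SE is |log2 fold change| divided by the root of F. The edgeR fit on group alone was also run on simulated counts, with no outcome given here, and the other fits were not. No pair of libraries of a group agreed within sampling noise (chi-square per degree of freedom of 1.29 or more). CPM uses TMM-scaled totals over tested peaks.

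Windows and gene spans come from the rule, and their gene positions are approximate. Promoter peaks have centres within 1 kb of the start, and enhancer zones a tolerance of 1 kb at Gfi1b and 2.5 kb at Gfi1. Named in full are promoter peaks, up to 4 of each enhancer zone, the 3 of lowest p and the 2 of highest signal per kb at each gene. The members and lists were chosen with earlier results of these data known. A planned list of cofactor and pathway genes was not analysed here, since no annotation of mm9 was used. Alternatives are given in the closing section. Software was Python 3.11.15 with matplotlib 3.10.9 and, under R 4.3.3, DESeq2 1.42.0, limma 3.58.1 and edgeR 4.0.16.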

Additional observations from a re-analysis of the deposited data

Results flagged for a closer look

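Within groups of 4 libraries, 46 sets of values were screened for 1 library far from the other 3 (Dixon's ratio above its critical value), and 5 met this, where chance flags about 1 in 20 sets. The Gfi1 peak 33.5 kb upstream had 58.4 CPM in replicate 2 of Vwf+Gata1+ cells, with 46.3 to 47.4 CPM in the other libraries of that group. The peak 1.8 kb into Gfi1 had 1.38 CPM in replicate 3 of Vwf+Gata1+ cells, with 2.63 to 2.77 CPM in the others. The untested peak 14.1 kb downstream of the Gfi1 start had 1.29 CPM in replicate 4 of Vwf+Gata1+ cells, with 0.563 to 0.688 CPM in the others. The peak 36.6 kb downstream of the Gfi1b start had 3.51 CPM in replicate 3 of Vwf-Gata1+ cells, with 5.07 to 5.25 CPM in the others. The ratio of summed Gfi1b over Gfi1 signal was 2.25 in replicate 2 of Vwf-Gata1+ cells, with 2.5 to 2.55 in the others. The 5 values come from 5 different libraries.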

How the results depend on the processing

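Member peaks called stayed at 0 at both genes in each other fit run: loess offsets, scaling by RLE or by total counts, limma-voom with quality weights, DESeq2, a CPM minimum of 1 in 4 libraries, no filter, the replicate block, adjusted p thresholds of 0.1 and 0.01, each library left out in turn, and both replicate 1 libraries left out. The lowest adjusted p at a named peak was 0.396, with the block. Over the whole table, edgeR called 13 higher and 1 lower peaks. Total counts gave 21 and 6, loess offsets 26 and 7, DESeq2 8 and 0, limma-voom 1 and 0, an adjusted p of 0.1 gave 48 and 12 and one of 0.01 gave 0 and 0. Leaving out both replicate 1 libraries, chosen after seeing the data, gave 32 and 3. Without 1 library there were between 3 and 66 higher and between 0 and 10 lower peaks, with 66 and 10 when Vwf+Gata1+ replicate 1 was left out, 51 and 4 when Vwf-Gata1+ replicate 3 was, and at most 9 higher ones for any other. The cause was not tested.

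The fit with a replicate block called 375 higher and 136 lower peaks. The 1 of the 19 peaks at an unadjusted p under 0.05 in that fit was the Gfi1 peak 1.0 kb into the gene (edgeR unadjusted p 0.025, adjusted p 0.396). The meaning of a shared number is not stated, and same-numbered libraries deviated together with correlations of 0.301, 0.163, 0.074 and 0.0103 in order of number, and 5 of 8 libraries correlated best with their own number.

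Of 204 values of the 12 named peaks in other fits, 12 changed sign, at 4 Gfi1b peaks whose log2 fold changes are close to 0. At 23.2 kb downstream it was -0.010 with loess offsets and between -0.018 and 0.10 without 1 library. At 19.6 kb it was between -0.14 and 3.6e-05 without 1 library. At 14.3 kb it was 0.029 with limma-voom, 0.048 without both replicate 1 libraries and between -0.17 and 0.084 without 1 library. At the promoter it was -0.0062 with total counts, -0.0078 with loess offsets and between -0.045 and 0.064 without 1 library. These signs carry no direction.

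Restricting the sums to the gene span and 1 kb on each side, which leaves out the enhancers, gave a log2 difference of 0.15 for Gfi1 in place of -0.07 and of -0.12 for the Gfi1b over Gfi1 ratio in place of 0.09. Windows 10 kb wider on each side held 12 Gfi1 peaks in place of 6 and 17 Gfi1b peaks in place of 14. Depth limits the weak peaks most, and the approximate gene starts limit the distances given.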
